A study of Rattus norvegicus with 19 samples.

Results

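The supraoptic nucleus (SON) was compared with the paraventricular nucleus (PVN) in normotensive Wistar-Kyoto (WKY) rats, on the 5 arrays labelled SON WKY and the 5 labelled PVN WKY, which are 10 of the 19 arrays of the series. Members were all 31042 probe sets that are not Affymetrix controls, of 31099 on the array, so no probe set was left out for a low signal. The WKY rats were untreated, inbred adult males, labelled as 12 weeks old. Each array held biotin-labelled cRNA of pooled nuclei, dissected by hand under a microscope from slices of hypothalamus with the optic chiasm as the landmark. The other 9 arrays, 5 of the PVN and 4 of the SON, came from Spontaneously Hypertensive rats (SHR) of the same labelled age and served as a second set of animals. A dissected nucleus is bulk tissue that can carry the tissue around it, and in such samples fewer cells of a type and less RNA per cell cannot be told apart. The labels do not say which pools shared animals, so p-values measure the spread between these pools.

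Both nuclei hold magnocellular neurones, which make vasopressin or oxytocin and send axons to the posterior pituitary, where the hormones enter the blood. The SON, beside the optic tract at the base of the brain, consists almost wholly of such cells, with the pia and a glial lamina on its ventral face. The PVN, beside the third ventricle, also holds parvocellular neurones that govern the anterior pituitary through corticotropin-releasing hormone, thyrotropin-releasing hormone and somatostatin, and others that project to autonomic centres of the brainstem and spinal cord.

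Signals are given as log2 of the scaled array signal, after every array had been set to the same median (40.5 on the linear scale), and a difference is the SON mean minus the PVN mean on that log2 scale. A probe set was called where limma gave a Benjamini-Hochberg adjusted p under 0.05 and the difference was at least 2-fold, which is 1 on the log2 scale. Values at the floor (1.87, the 10th percentile of all signals) have no order among themselves. Levels of different genes come from different probe sets and were not compared with each other.

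Out of 31042 probe sets the SON was called higher for 547 (1.76%) and lower for 549 (1.77%). The SON and PVN arrays did not overlap for 980 of these 1096, against 6.78% of all probe sets that lay apart with the SON higher and 6.81% with the SON lower. The calls were made on these same arrays, so their lack of overlap follows in part from the selection and is no separate evidence. Each of 14217 named genes was represented by the brightest of its probe sets, and of these 314 (2.21%) were called higher and 307 (2.16%) lower, with a median difference of 0.0043. Without the fold limit, 10.3% of genes passed as higher and 8.75% as lower. Array SON 3 stood apart, with a mean correlation of 0.929 to its own group where the other WKY arrays had 0.945 to 0.968, and the second principal component (17.3% of the variance) separated it from the rest. Leaving it out gave 548 calls higher and 526 calls lower. The first component (30.8%) separated the nuclei.

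**Figure D1:**
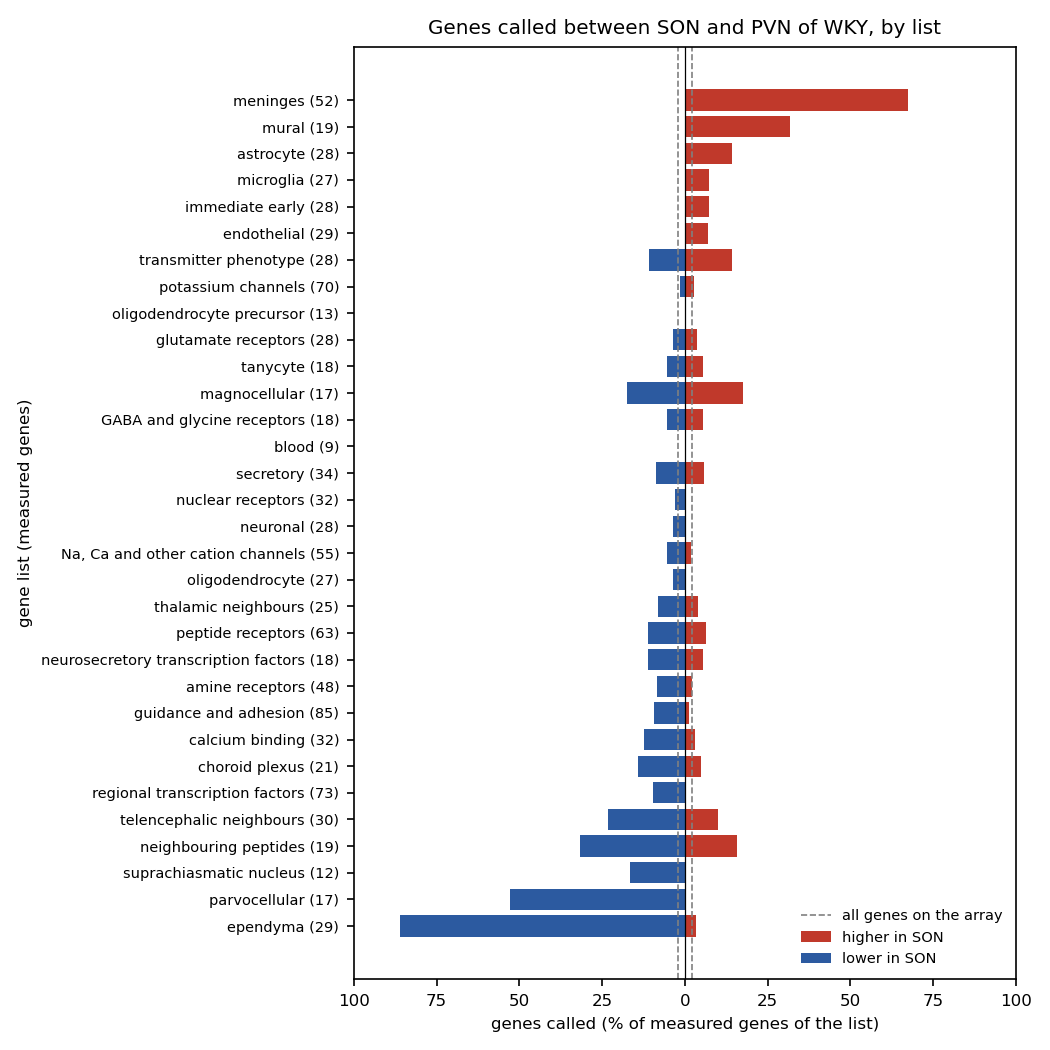
Share of the measured genes of each list that were called between the SON and the PVN of WKY rats, lower in the SON to the left (blue) and higher to the right (red), as a percentage of the measured genes, whose number stands in brackets. Dashed lines give the share over all genes on the array, 2.16% lower and 2.21% higher. Bars of the ependymal list reach 86.2% on the left and those of the meningeal list 67.3% on the right.

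The magnocellular hormones themselves gave overlapping signals in the 2 dissections. Avp, the vasopressin precursor, gave 12.26, 11.90, 12.15, 12.54 and 12.95 on the 5 SON arrays and 12.51, 12.36, 12.13, 12.24 and 12.26 on the 5 PVN arrays. Oxt, the oxytocin precursor, gave 11.84, 11.78, 11.87, 12.36 and 12.70 in the SON and 12.37, 12.27, 11.82, 12.12 and 12.06 in the PVN. The groups overlapped for both genes, with differences of 0.057 (SE 0.18, adjusted p = 0.886) and -0.022 (SE 0.19, adjusted p = 0.97), and the SON arrays spread more widely than those of the PVN. The bright genes Apoe and Cst3 ranked the 5 SON arrays in the same order as Avp, from SON 2 (12.14 and 12.12) to SON 5 (12.72 and 12.66). Whether signals this bright are compressed, which could hide a difference, was not tested. The co-peptide genes Gal (galanin), Cartpt and Cck (cholecystokinin) differed by less than 2-fold, at 0.54, -0.47 and -0.58, with adjusted p = 0.0493, 0.0192 and 0.0217.

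Of the 17 measured hormone and co-peptide genes of magnocellular neurones, 3 were called higher and 3 lower in the SON (17.6% each way, against 2.21% and 2.16% of all genes), with a median difference of -0.022. Pdyn, which encodes prodynorphin, the precursor of the opioid that vasopressin cells release with their hormone, gave 11.55, 11.32, 11.43, 11.81 and 11.73 in the SON and 9.67, 9.64, 9.85, 9.76 and 9.82 in the PVN. No PVN array reached the lowest SON array, and the difference was 1.82 (SE 0.1, adjusted p = 9.09e-06). Ucn, the gene of urocortin, a peptide of the corticotropin-releasing hormone family, gave 7.31, 7.24, 7.12, 7.55 and 7.50 in the SON and 4.69, 4.82, 5.00, 4.40 and 4.35 in the PVN. It was 6.47-fold higher in the SON, a difference of 2.69 (SE 0.14, adjusted p = 7.75e-06), with the groups fully apart. Nmb, which encodes neuromedin B, was at 7.20 ± 0.25 (SD, n = 5) in the SON and 5.65 ± 0.17 in the PVN (adjusted p = 0.000105).

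The 3 called lower were Penk, Scg2 and Adcyap1. Penk, the precursor of enkephalins, gave 8.19, 8.21, 7.46, 7.58 and 7.77 in the SON and 10.15, 10.30, 10.27, 10.11 and 10.11 in the PVN, a difference of -2.35 (SE 0.15, adjusted p = 2.4e-05). Scg2, which encodes secretogranin II of dense-core granules, was among the tightest measurements, with SON arrays from 9.47 to 9.70 and PVN arrays from 11.13 to 11.33 (difference -1.60, SE 0.063, adjusted p = 2.14e-06). Adcyap1, the gene of the peptide PACAP, differed by -1.59 (SE 0.15, adjusted p = 0.000188). Among the rest of the list, Nucb2 (nesfatin-1) passed the adjusted p without reaching 2-fold, at 0.44 (adjusted p = 0.0368), and Vgf (-0.083), Apln (-0.27), Vip (0.41), Tac3 (-0.47) and Edn1 (0.21) did not pass.

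Of 17 measured peptide genes of parvocellular neurones, 9 (52.9%, against 2.16% of all genes) were called lower in the SON and 0 higher, with a median difference of -1.59. The mean of the list lay between 5.36 and 5.83 on the SON arrays and between 7.04 and 7.33 on the PVN arrays. All 9 were also called without array SON 3. Of these, Grp, Ghrh, Npvf, Penk and Adcyap1 stand in other lists given here as well.

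Crh encodes corticotropin-releasing hormone, which drives the pituitary to release corticotropin. It gave 5.08, 4.85, 5.05, 5.29 and 4.99 in the SON and 8.65, 8.85, 9.40, 9.31 and 9.36 in the PVN, so that the lowest PVN array exceeded the highest SON array by a wide margin, and the mean was 16.7-fold lower in the SON (difference -4.06, SE 0.16, adjusted p = 2.14e-06). Trh encodes thyrotropin-releasing hormone. It gave 7.12, 6.08, 6.66, 6.48 and 6.63 in the SON and 10.10, 9.96, 10.40, 10.21 and 10.27 in the PVN, a difference of -3.60 (SE 0.18, adjusted p = 5.11e-06). Sst encodes somatostatin, which restrains the release of growth hormone, and in the rat hypothalamus its hypophysiotropic neurones lie next to the third ventricle. It gave 7.51, 7.32, 6.10, 6.76 and 6.71 in the SON and 11.48, 11.60, 11.66, 11.85 and 11.79 in the PVN, and was 27.8-fold lower in the SON (difference -4.79, SE 0.24, adjusted p = 6e-06).

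Grp (gastrin-releasing peptide) differed by -3.24 (SE 0.20, adjusted p = 1.72e-05) and Ghrh (growth hormone-releasing hormone) by -1.75 (SE 0.15, adjusted p = 0.000118). Npvf, the gene of RFamide-related peptides, was lower on every SON array than on any PVN array (1.87 to 4.99 against 5.91 to 6.65), with array SON 3 at the floor, and its difference of -2.21 had an SE of 0.56 (adjusted p = 0.0305), which was lost without any 1 of arrays PVN 1, PVN 2, PVN 3 and PVN 5. Cbln1, a secreted organiser of synapses, differed by -1.99 (adjusted p = 1.21e-05). Penk and Adcyap1, given above, completed the 9. Npy (neuropeptide Y) passed in the other direction at 0.33 (adjusted p = 0.0467), Tac1 and Cbln2 passed as lower at -0.47 and -0.61, and Nts (-0.68, adjusted p = 0.0505), Pnoc (0.043), Nppc (-0.42) and Nmu (0.99) did not pass.

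**Figure D2:**
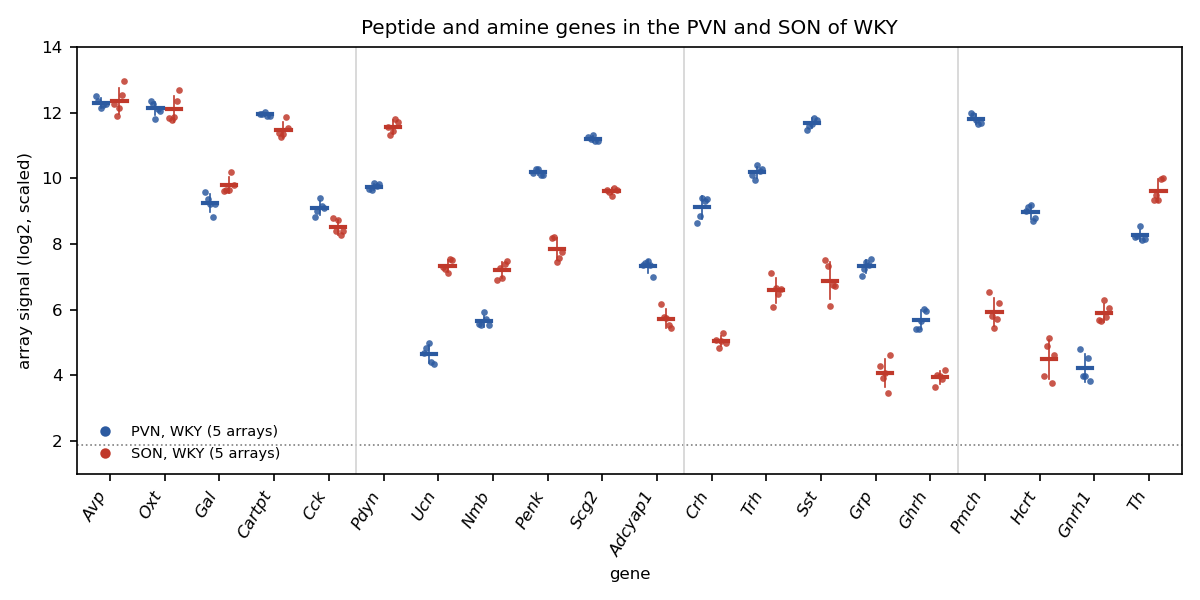
Array signals (log2, scaled) of 20 peptide and amine genes in the PVN (blue) and SON (red) of WKY rats, with 1 point for each of the 5 arrays of a nucleus, the mean as a horizontal line and 1 SD as a vertical line. The dotted line is the floor at 1.87. Avp and Oxt overlap between the nuclei, Pdyn, Ucn and Nmb lie higher in the SON, and Crh, Trh, Sst, Pmch and Hcrt lie lower. Signals of different genes are not comparable.

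A peptide of cell groups next to the nuclei gave the largest difference among the genes. Pmch, the gene of melanin-concentrating hormone, which marks neurones of the lateral hypothalamus and zona incerta, gave 6.53, 5.82, 5.46, 5.70 and 6.20 in the SON and 11.98, 11.94, 11.79, 11.66 and 11.69 in the PVN. That is a 58.5-fold lower signal in the SON (difference -5.87, SE 0.19, adjusted p = 8.87e-07), and it was lower by 5.49 in SHR. Hcrt, the gene of orexins, made by neurones of the lateral and perifornical hypothalamus, gave 3.97, 4.91, 5.14, 3.77 and 4.62 in the SON and 9.01, 9.13, 9.19, 8.70 and 8.78 in the PVN (difference -4.48, SE 0.27, adjusted p = 1.41e-05). Of the 19 measured genes of neighbouring hypothalamic groups, 6 were called lower (31.6%) and 3 higher (15.8%), against 2.16% and 2.21% of all genes, with a median of -0.44.

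The other calls lower in the SON were Ghrh and Npvf, given above, Hdc, and Gast (gastrin) at -1.44 (adjusted p = 0.000519). Hdc, the enzyme that makes histamine, differed by -2.84 (SE 0.38, adjusted p = 0.00128). The 3 called higher were Gnrh1, Th and Npff. Gnrh1, the gene of gonadotropin-releasing hormone, gave 5.69, 5.64, 6.28, 5.77 and 6.06 in the SON and 4.80, 3.98, 3.98, 4.53 and 3.83 in the PVN (difference 1.66, SE 0.21, adjusted p = 0.00105), whereas its other probe set, with means of 3.45 and 3.53, did not differ beyond its spread (adjusted p = 0.967). Th, tyrosine hydroxylase of catecholamine synthesis, was at 9.63 ± 0.34 in the SON and 8.26 ± 0.17 in the PVN (SD, n = 5), with every SON array above every PVN array (difference 1.37, SE 0.16, adjusted p = 0.000745). Ddc, the enzyme of the following step, passed in the opposite direction at -0.75 (adjusted p = 0.000392), as did the dopamine transporter gene Slc6a3 at -0.87 (adjusted p = 0.00833). A dimmer Ddc probe set did not pass (-0.27, adjusted p = 0.504). Nor did a second Slc6a3 probe set, at the floor on 4 SON and 3 PVN arrays (0.020, adjusted p = 0.97). Pomc, the melanocortin precursor of the arcuate nucleus, was at the floor on all 5 SON and on 3 of the 5 PVN arrays.

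Genes that mark the suprachiasmatic nucleus were called lower in 2 of 12 cases (16.7%, against 2.16% of all genes), Grp and Six6, and higher in 0, with a median of -0.22. Of 25 thalamic and zona incerta markers 2 were called lower (8%, against 2.16%), Tnnt1 at -2.40 and Ntng1 at -1.44, and 1 higher (4%, against 2.21%), Ramp3 at 1.02, with overlapping groups and a call under 8 of 22 alternative settings. Of 30 markers of the telencephalic neighbours of the SON, 3 were called higher (10%) and 7 lower (23.3%), against 2.21% and 2.16% of all genes, with a median of -0.099. The 3 that were higher belong to cholinergic neurones. Chat, which makes acetylcholine, gave 6.53, 6.32, 5.67, 4.76 and 5.30 in the SON and 2.95, 2.98, 3.98, 3.56 and 3.25 in the PVN (difference 2.37, SE 0.36, adjusted p = 0.00249). Slc5a7, the choline transporter, gave 7.60, 7.34, 6.30, 5.62 and 6.04 in the SON and 4.47, 3.68, 4.12, 4.84 and 4.04 in the PVN (difference 2.35, SE 0.40, adjusted p = 0.005). For both genes arrays SON 1 and SON 2 were the highest of the group, and every SON array lay above every PVN array. For Slc18a3, the vesicular transporter of acetylcholine, SON 4 at 2.99 lay below PVN 5 at 3.19 (difference 2.32, adjusted p = 0.0075). The 7 called lower were Penk, given above, Rprm (-2.93), Nptx1 (-1.83), Dlx1 (-1.70), Lmo3 (-1.68), Camk2a (-1.33) and Drd2 (-1.05, called under 8 of 22 alternatives).

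Of the 28 genes of transmitter phenotype, 4 were called higher (14.3%) and 3 lower (10.7%) in the SON, against 2.21% and 2.16% of all genes. The 3 called lower were Gad1, Slc32a1 and Hdc, and the 4 called higher were Chat, Slc18a3, Th and Slc6a13, a GABA transporter that the meningeal list holds as well. Gad1, the main enzyme of GABA synthesis, gave 9.61, 9.70, 8.78, 8.39 and 8.59 in the SON and 10.43, 10.68, 10.66, 10.27 and 10.15 in the PVN (difference -1.43, SE 0.27, adjusted p = 0.00828), while its dim second probe set, with means of 2.25 and 3.27, did not pass (adjusted p = 0.171). Slc32a1, the vesicular transporter of GABA and glycine, gave 7.38, 7.43, 6.47, 6.41 and 6.74 in the SON and 8.25, 8.62, 8.53, 8.28 and 7.98 in the PVN (difference -1.45, SE 0.23, adjusted p = 0.00354). Arrays SON 1 and SON 2 were again the highest of the SON for both genes, as they were for Penk, Sst, Chat and Slc5a7, yet they stayed below every PVN array for Gad1 and Slc32a1. Slc17a6, the vesicular glutamate transporter of the hypothalamus, differed by -0.22 (SE 0.081, adjusted p = 0.116), which did not pass. Nos1, the neuronal nitric oxide synthase, had a low signal in both nuclei (3.99 ± 1.26 and 4.40 ± 0.25, SD, n = 5), with array SON 3 at the floor, and did not pass (adjusted p = 0.683).

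Of 63 measured receptors for peptides, 7 were called lower (11.1%) and 4 higher (6.35%), against 2.16% and 2.21% of all genes, with a median difference of -0.10. Npy1r and Npy5r, receptors for neuropeptide Y, gave 4.55, 4.29, 2.81, 3.29 and 3.64 and 3.94, 4.22, 2.77, 2.93 and 3.06 in the SON, against 6.71, 6.48, 6.94, 6.93 and 7.05 and 5.71, 5.86, 6.03, 5.26 and 5.71 in the PVN. Both groups lay fully apart, at -3.10 (SE 0.32, adjusted p = 0.000298) and -2.33 (SE 0.30, adjusted p = 0.00109). Calcr, the calcitonin receptor, gave 6.42, 6.24, 6.37, 5.46 and 5.32 in the SON and 8.67, 8.54, 8.79, 8.56 and 8.71 in the PVN (difference -2.69, SE 0.23, adjusted p = 0.000107). Agtr1a, the type 1A angiotensin II receptor through which the peptide acts on drinking and blood pressure, gave 4.05, 3.84, 4.44, 3.81 and 4.37 in the SON and 5.61, 6.01, 6.59, 5.98 and 5.98 in the PVN (difference -1.93, SE 0.20, adjusted p = 0.000297), and its other probe set had a difference of -1.75 that did not pass (adjusted p = 0.0638). The other 3, chosen after their values were seen, were the orexin receptor Hcrtr2 (-1.62), the opioid receptor Oprm1 (-1.56, overlapping groups) and the somatostatin receptor Sstr1 (-1.40). Dimmer probe sets of Oprm1 and Sstr1 did not pass and had the higher mean in the SON.

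The largest rise among the receptors was that of Aplnr, the receptor for apelin. It gave 7.43, 7.37, 7.19, 7.37 and 7.37 in the SON and 4.48, 4.78, 4.53, 4.81 and 4.93 in the PVN (difference 2.64, SE 0.096, adjusted p = 1.6e-06), while a dimmer probe set of the same gene, with means of 3.74 and 3.41, did not pass (adjusted p = 0.836). Tacr3, the neurokinin B receptor that magnocellular neurones carry, gave 6.70, 6.88, 7.03, 7.06 and 6.69 in the SON and 4.83, 4.96, 5.35, 5.39 and 5.54 in the PVN (difference 1.66, SE 0.15, adjusted p = 0.00016). Ramp3, given above, and Npr1, a receptor for natriuretic peptides chosen after its values were seen, were the other calls higher, and Npr1 had overlapping groups (difference 1.40, adjusted p = 0.0345, called under 6 of 22 alternatives). The vasopressin receptor gene Avpr1a gave 1.87, 1.87, 3.01, 3.70 and 3.91 in the SON, with arrays 1 and 2 at the floor, and 4.27, 4.56, 4.44, 3.92 and 3.77 in the PVN, and did not pass (adjusted p = 0.0758), though it did without array SON 5. Oxtr, the oxytocin receptor, was at the floor on 4 of 5 SON arrays and on all 5 PVN arrays. Mc4r, a melanocortin receptor, differed by -0.55 (adjusted p = 0.0865) and passed only without array SON 4 among the arrays left out.

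Of 48 receptors for amines, acetylcholine and purines, 4 were called lower (8.33%) and 1 higher (2.08%), against 2.16% and 2.21% of all genes. Chrna4, a nicotinic receptor subunit, was at the floor on 3 of 5 SON arrays and gave 4.02 to 4.38 in the PVN (difference -2.16, adjusted p = 8.95e-05). Htr2c, a serotonin receptor, had a difference of -1.17 (adjusted p = 0.00438), while its dimmer probe set, with means of 4.90 and 4.98, did not pass (-0.078, adjusted p = 0.866). Hrh3 (-1.16) and Drd2 were also called lower, and a dimmer Hrh3 probe set did not pass (-1.32, adjusted p = 0.0995). Adra2b, an adrenergic receptor, was higher at 1.39 (adjusted p = 0.0245) and called under 12 of 22 alternative settings. Its dimmer probe sets did not pass (adjusted p = 0.255 and 0.242). Of 32 steroid and other nuclear receptors, Esrrg alone was called (3.12%, against 2.16% of all genes), lower at -1.29 (adjusted p = 0.000565). Without the fold limit 6 in all passed as lower (18.8%, against 8.75%) and 0 as higher (against 10.3%).

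Of 70 potassium channel subunits 2 were called higher (2.86%) and 1 lower (1.43%), near the 2.21% and 2.16% of all genes, with a median of -0.10, and 58 did not pass. Kcnmb4, a beta subunit of the large-conductance calcium-activated potassium channel, which shapes spike width in neurohypophysial neurones, gave 9.51, 9.48, 9.40, 9.90 and 9.38 in the SON and 8.25, 8.54, 8.58, 8.37 and 8.33 in the PVN (difference 1.12, SE 0.11, adjusted p = 0.000288). Kcna1 was just past the 2-fold limit at 1.00 (adjusted p = 0.0327, overlapping groups). Kcnk12 was the call lower, at -1.51 (adjusted p = 0.0289, overlapping groups), and both were called under 8 of 22 alternatives. The Kcnk12 signal was low, with means of 2.74 in the SON and 4.25 in the PVN. Of 55 sodium, calcium and other cation channel genes 3 were called lower (5.45%) and 1 higher (1.82%), against 2.16% and 2.21% of all genes. Without the fold limit 14 passed as lower (25.5%, against 8.75% of all genes) and 4 as higher (7.27%, against 10.3%). Scn7a, the sodium-sensing channel of glia in and around the circumventricular organs, gave 5.02, 5.38, 5.30, 4.83 and 4.87 in the SON and 6.96, 6.86, 7.03, 7.13 and 7.31 in the PVN (difference -1.98, SE 0.13, adjusted p = 2.67e-05). Cacna2d3 (-1.17) and Trpc6 (-1.07) were the other calls lower and Cacna1e (1.41, with 1 PVN array at the floor) the call higher.

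GABA, glycine and glutamate receptor genes were mostly within 2-fold. Of 18 GABA-A, GABA-B and glycine receptor genes, Gabrb2 was called higher and Gabbr2 lower (5.56% each way, against 2.21% and 2.16% of all genes). Gabrb2 gave 9.39, 9.56, 9.33, 9.71 and 9.46 in the SON and 8.80, 8.39, 7.95, 8.69 and 8.59 in the PVN (difference 1.01, SE 0.16, adjusted p = 0.00314), though its second probe set, with means of 2.63 and 3.29, ran the other way without passing (adjusted p = 0.351). Gabbr2, a subunit of the GABA-B receptor, gave 8.37, 8.44, 7.92, 8.33 and 8.19 in the SON and 9.27, 9.38, 9.47, 9.42 and 9.25 in the PVN (difference -1.11, SE 0.10, adjusted p = 0.000165). Gabre (-0.88), Glra2 (-0.82) and Glrb (-0.45) passed as lower without reaching 2-fold, though a second probe set of Glra2 was called lower at -1.63 (adjusted p = 0.0325), and the other 13 did not pass, among them Gabbr1 (-0.15) and Gabrb1 (0.035). Of 28 glutamate receptor genes, Grik1 was lower (-1.04, adjusted p = 0.00275) and Grik3 higher (1.61, adjusted p = 0.00636, 2 PVN arrays at the floor). That is 3.57% each way, against 2.16% and 2.21% of all genes, and Gria2 passed at -0.79.

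**Figure D3:**
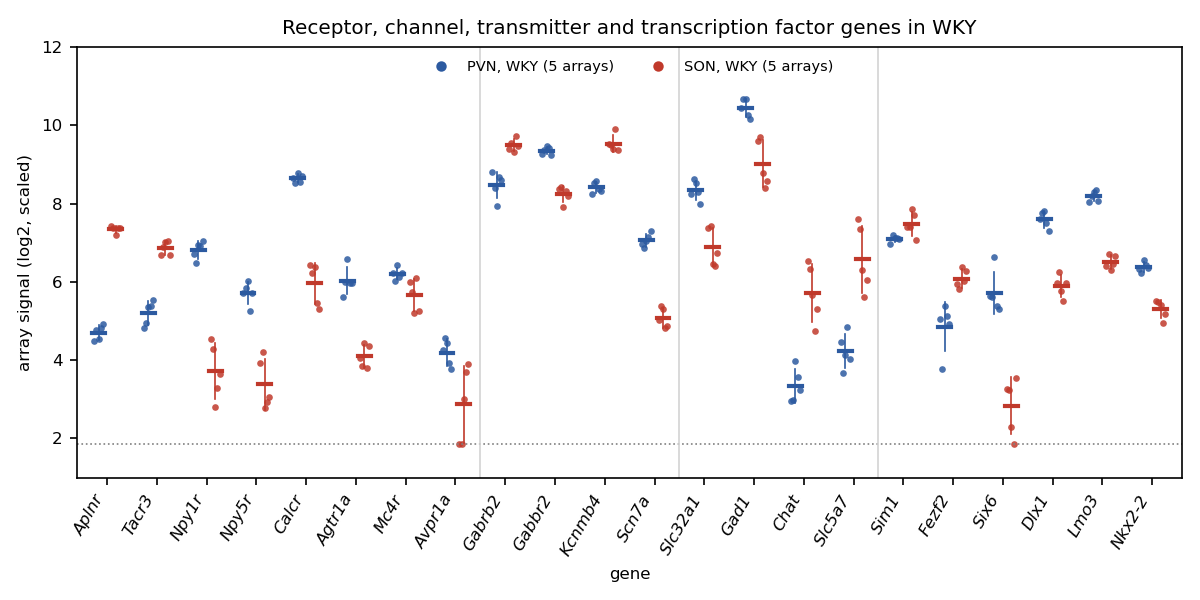
Array signals (log2, scaled) of receptor, channel, transmitter and transcription factor genes in the PVN (blue) and SON (red) of WKY rats, with 1 point per array, 5 per nucleus, the mean as a horizontal line and 1 SD as a vertical line. The dotted line is the floor at 1.87. Aplnr, Tacr3, Kcnmb4, Chat and Slc5a7 lie higher in the SON, and Npy1r, Calcr, Agtr1a, Gad1, Dlx1 and Lmo3 lower. Signals of different genes are not comparable.

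Of 18 measured transcription factors that specify PVN and SON neurones, 1 was called higher (5.56%) and 2 lower (11.1%), against 2.21% and 2.16% of all genes. Sim1, required for both nuclei to form, gave 7.40, 7.39, 7.87, 7.71 and 7.06 in the SON and 6.97, 7.19, 7.11, 7.12 and 7.10 in the PVN (difference 0.39, SE 0.14, adjusted p = 0.103), and passed only without array SON 5 among the arrays left out. Its partner Arnt2 differed by 0.18 (adjusted p = 0.216). The probe sets of Otp and Pou3f2, 2 further factors of this lineage, lay at or near the floor in both nuclei, Pou3f2 on all 10 arrays, and carry no information on a difference. Fezf2 was called higher (5.81 to 6.37 against 3.78 to 5.38, difference 1.23, adjusted p = 0.0191). Sim2 was called lower, with 4 SON arrays at the floor and the PVN at 4.22 to 4.82 (difference -2.24, adjusted p = 0.00465), as was Onecut2 (-1.49, adjusted p = 0.0432), none of whose other 3 probe sets passed. Creb3l1, a factor linked to vasopressin synthesis, passed without reaching 2-fold, at 0.84 (adjusted p = 0.0168).

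Of 73 factors of regional forebrain identity, 7 (9.59%, against 2.16% of all genes) were called lower and 0 higher, with a median of -0.22. Six6, a factor of the suprachiasmatic and ventral hypothalamic lineage, gave 3.25, 3.24, 2.29, 1.87 and 3.55 in the SON and 5.65, 5.60, 6.63, 5.38 and 5.32 in the PVN (difference -2.88, SE 0.38, adjusted p = 0.00118). Dlx1, a factor of GABAergic neurones, gave 5.98, 6.25, 5.76, 5.51 and 5.96 in the SON and 7.60, 7.76, 7.82, 7.49 and 7.29 in the PVN (difference -1.70, SE 0.15, adjusted p = 0.000138). Lmo3 gave 6.39, 6.72, 6.31, 6.46 and 6.67 in the SON and 8.04, 8.20, 8.30, 8.34 and 8.07 in the PVN (difference -1.68, SE 0.10, adjusted p = 1.53e-05). The other 4 were Esrrg, Nkx2-2 (-1.07, adjusted p = 0.000463), Isl1 (-2.13, adjusted p = 0.0352) and Klf5, chosen after its values were seen. A second Isl1 probe set had the higher mean in the SON (4.40 against 4.03) and did not pass (adjusted p = 0.44). Klf5 was at -1.01 in WKY and at 0.72 in SHR, where it did not pass (adjusted p = 0.586). Its interaction of nucleus with strain did not pass either (adjusted p = 0.719). The other Klf5 probe sets, at -0.75, -1.17 and -0.12 in WKY, were not called. Lmo4 (-0.64) and Sox2 (-0.68) passed as lower within 2-fold.

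Of 28 pan-neuronal genes 1 was called, lower in the SON (3.57%, against 2.16% of all genes). Without the fold limit 4 passed as higher (14.3%, against 10.3%) and 7 as lower (25%, against 8.75%). The median was -0.043, and the mean of the list was 8.92 to 9.14 on SON arrays and 9.01 to 9.22 on PVN arrays. Eno2 (-0.014), Snap25 (-0.083) and Stmn3 (0.11), the members with the highest signals, did not pass. Gap43, a growth cone protein that adult neurones with plastic terminals keep, was the call, at 9.25 to 9.98 in the SON and 10.82 to 11.14 in the PVN (difference -1.40, SE 0.16, adjusted p = 0.000628). Of 32 calcium-binding and calcium-signalling genes 4 were called lower (12.5%, against 2.16% of all genes), with Pvalb (parvalbumin) at -1.85, Camk2a at -1.33, Hpcal4 at -1.31 and Camkv at -1.15, and Camk2g higher at 1.06 (3.12%, against 2.21%). A dimmer Camk2g probe set, with means of 7.81 in the SON and 7.97 in the PVN, did not pass (-0.16, adjusted p = 0.51). The calcium-binding pair that mark subsets of hypothalamic neurones moved apart within 2-fold, with Calb2 (calretinin) higher at 0.63 (adjusted p = 0.00266) and Calb1 (calbindin) lower at -0.60 (adjusted p = 0.00237).

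Genes of the secretory pathway mostly differed by less than 2-fold. Of 34 genes of prohormone processing and granules, 12 passed as higher (35.3%) and 6 as lower (17.6%) without the fold limit, against 10.3% and 8.75% of all genes, with a median of 0.11. Tmed3, a cargo receptor of the early secretory pathway, gave 9.73, 9.67, 9.79, 10.17 and 9.82 in the SON and 8.06, 8.15, 8.60, 8.24 and 8.27 in the PVN (difference 1.57, SE 0.12, adjusted p = 7.39e-05), and Dnajc3, a chaperone of the endoplasmic reticulum, differed by 1.10 (adjusted p = 0.0026). Scg2, Sytl4 (-1.65) and Rph3al (-1.43) were called lower, of which Sytl4 and Rph3al encode granule effectors of Rab proteins. Cpe, the carboxypeptidase that trims prohormones, Scg5 and Resp18 did not pass, at 0.12, 0.15 and 0.098. Of 85 guidance, adhesion and synaptic organiser genes 8 (9.41%) were called lower and 1 (1.18%) higher, against 2.16% and 2.21% of all genes, and 27 (31.8%, against 8.75%) passed as lower without the fold limit. They included Cbln1, Nxph3 (-1.51), Efnb3 (-1.46), Ntng1 and Sema5a (-1.39). A dimmer Nxph3 probe set did not pass (-0.082, adjusted p = 0.901), and neither did the other Sema5a probe sets (-0.84, -1.51 and -0.43). Cdh1 (E-cadherin), with all 5 PVN arrays at the floor and SON arrays from 2.37 to 4.62, was at least 3.79-fold higher in the SON (adjusted p = 0.00833).

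Astrocyte genes were unequal among themselves. Of 28 measured markers 4 were called higher (14.3%, against 2.21% of all genes) and 0 lower, while the median was 0.036. Aldh1l1, a folate enzyme used as a marker of astrocytes, gave 9.65, 9.47, 9.03, 9.45 and 9.05 in the SON and 6.64, 6.54, 6.55, 6.79 and 6.50 in the PVN, 6.63-fold higher (difference 2.73, SE 0.13, adjusted p = 5.09e-06). Gfap, the intermediate filament of astrocytes, gave 11.85, 11.72, 11.75, 12.16 and 12.19 in the SON and 10.79, 10.64, 11.06, 10.80 and 10.74 in the PVN (difference 1.13, SE 0.12, adjusted p = 0.000392). Gjb6 (connexin 30) and Id3 differed by 1.49 and 1.63 (adjusted p = 0.000432 and 0.000101). Apoe (0.22), Cst3 (-0.018), Itih3 (0.059) and Slc1a3 (-0.25), an astrocytic glutamate transporter, did not pass.

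Of 27 oligodendrocyte genes, Plekhb1 alone was called, lower at -1.08 (adjusted p = 0.000198), which is 3.7%, against 2.16% of all genes. Without the fold limit 6 passed as lower (22.2%, against 8.75%) and 3 as higher (11.1%, against 10.3%). Mbp, myelin basic protein, gave 11.45, 11.44, 11.31, 11.39 and 11.36 in the SON and 11.30, 11.42, 11.31, 11.21 and 11.15 in the PVN (difference 0.11, adjusted p = 0.29). Of 13 oligodendrocyte precursor markers 0 were called by limma and an unadjusted p under 0.05 was found for 4 with the SON higher and for 4 with it lower. Among them Pdgfra, Vcan and Bcan passed as higher within 2-fold, at 0.73, 0.88 and 0.53, and Lhfpl3 as lower at -0.65. Of 27 microglial and macrophage genes 6 passed as higher (22.2%) and 4 as lower (14.8%) without the fold limit, against 10.3% and 8.75% of all genes. The 2 called higher (7.41%, against 2.21%) were Cd74, the invariant chain of MHC class II, at 6.50 to 7.06 against 4.43 to 5.21 (difference 1.94, SE 0.16, adjusted p = 9.59e-05), and Mrc1, a marker of perivascular and meningeal macrophages, at 1.40 (adjusted p = 0.00194). The microglial genes P2ry12 and C1qa passed in the other direction, within 2-fold, at -0.45 and -0.43. Of 9 blood markers 0 were called by limma, an unadjusted p under 0.05 was found for 1 in each direction, 1 passed within 2-fold (Hbb, beta globin, 0.67, adjusted p = 0.0249), and Ahsp was at the floor on all 10 arrays.

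The list that differed most was that of ependymal and motile cilium genes. Of 29 measured genes 25 (86.2%, against 2.16% of all genes) were called lower in the SON and 1 higher, with a median difference of -2.41. The mean of the list lay between 4.66 and 4.86 on the SON arrays and between 6.84 and 7.26 on the PVN arrays, with no overlap. Without array SON 3, 25 were again called lower and the median was -2.13. Ependymal cells line the ventricles, and the third ventricle borders the PVN and not the SON. The part of ependymal tissue in other differences was not tested.

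Dynlrb2, a light chain of dynein, gave 5.93, 5.98, 6.30, 6.08 and 5.63 in the SON and 10.37, 10.16, 10.60, 10.38 and 10.35 in the PVN, 20.9-fold lower (difference -4.39, SE 0.13, adjusted p = 5e-07). Ak7, an adenylate kinase of cilia, gave 2.97, 1.87, 3.48, 3.21 and 2.03 in the SON and 7.82, 7.47, 8.07, 7.96 and 7.91 in the PVN (difference -5.13, SE 0.32, adjusted p = 1.8e-05). Mlf1 gave 3.59, 3.54, 1.87, 1.87 and 3.71 in the SON, with 2 arrays at the floor, and 7.83, 7.65, 7.99, 8.15 and 8.19 in the PVN (difference -5.05, adjusted p = 9.23e-05). Tmem212 differed by -3.96 on its brighter probe set and by -5.34 on the other. Cimap1b, Cdhr4 and, from outside the list, Spaca9, Dnah1, Cfap77 and Cfap161, genes of axonemes or cilia, completed the set of ciliary genes among the 15 largest falls, at -5.02, -3.79, -3.88, -3.96, -3.93 and -3.89. Foxj1, the master regulator of motile cilia, chosen after its values were seen, was lower too, at -1.42 (adjusted p = 0.00016). Rarres2, which encodes chemerin, was the member that rose, at 1.54 (adjusted p = 0.000944).

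Promoter windows are shown for 4 of these genes, because RFX factors are known to drive ciliary genes through sites that contain GTTGCC. The windows are the 250 bases before the annotated start, from RefSeq on the assembly GRCr8, and capitals mark GTTGCC on either strand. They are the 4 ependymal genes with this motif that had the largest fall.
Mlf1 (chr2:153958341-153958590, + strand): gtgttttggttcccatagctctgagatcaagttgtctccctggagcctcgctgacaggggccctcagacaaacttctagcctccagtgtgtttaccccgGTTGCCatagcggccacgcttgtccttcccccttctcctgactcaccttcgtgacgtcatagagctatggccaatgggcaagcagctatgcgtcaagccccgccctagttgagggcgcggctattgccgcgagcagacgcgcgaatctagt
Cimap1b (chr7:122326922-122327171, - strand): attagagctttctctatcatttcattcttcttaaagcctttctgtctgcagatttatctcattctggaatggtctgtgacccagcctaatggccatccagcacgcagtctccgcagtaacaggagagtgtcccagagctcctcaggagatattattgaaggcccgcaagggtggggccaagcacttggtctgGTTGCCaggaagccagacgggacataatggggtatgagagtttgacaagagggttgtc
Drc12 (chr8:53474409-53474658, + strand): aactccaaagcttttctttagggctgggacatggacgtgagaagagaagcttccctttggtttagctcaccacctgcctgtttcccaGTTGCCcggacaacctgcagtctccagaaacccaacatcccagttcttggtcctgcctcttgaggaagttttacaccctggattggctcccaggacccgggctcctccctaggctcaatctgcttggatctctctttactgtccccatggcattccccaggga
Cfap144 (chr10:44019282-44019531, - strand): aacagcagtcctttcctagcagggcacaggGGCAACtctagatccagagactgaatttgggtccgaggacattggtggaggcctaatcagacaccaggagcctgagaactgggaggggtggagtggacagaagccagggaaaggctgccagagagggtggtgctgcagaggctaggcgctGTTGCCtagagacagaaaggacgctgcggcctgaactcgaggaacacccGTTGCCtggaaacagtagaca

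The motif GTTGCC, searched on both strands, was present in 8 of 22 windows of ependymal genes called lower (36.4%, 21 of 25 genes having a window), in 2 of 21 windows of meningeal genes called higher (9.52%) and in 9.89% of all 33469 windows of this length. Cfap144 held it 3 times and the other genes shown once each. Cfap144 gave a difference of -2.76 and Drc12 of -3.32. The forkhead motif GTAAACA was present in 1 of the 22 ependymal windows (4.55%), against 3.21% of all windows, and the cAMP response element TGACGTCA in 1 of 22, against 1.59%. TATAAA was in 2 of 22 (9.09%), against 12.9% of all. The motifs were picked after matches had been seen, a match is a description of these letters, and no test was made. Ependymal genes that were not called were not searched as a set, so the share says nothing about the difference between the nuclei.

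Other ventricular lists split. Of 21 choroid plexus genes 3 were called lower (14.3%) and 1 higher (4.76%), against 2.16% and 2.21% of all genes. Msx1 was at 5.12, 4.70, 1.87, 4.19 and 3.69 in the SON and 8.48, 7.94, 8.57, 8.54 and 8.60 in the PVN (difference -4.51, SE 0.54, adjusted p = 0.00077), and Folr1 (-1.81) and Calml4 (-1.93) were the other calls lower. Ttr (transthyretin), the most abundant transcript of choroid plexus, overlapped between the nuclei at 6.52 to 7.65 and 5.52 to 7.15 (difference 0.60, adjusted p = 0.329). Of 18 tanycyte genes 1 was called lower (Scn7a) and 1 higher (Ptgds, which the meningeal list holds as well), 5.56% each way, against 2.16% and 2.21% of all genes. Rax, the factor that defines tanycytes, was near the floor at 3.25 ± 0.68 and 2.97 ± 0.70 (SD, n = 5).

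Meningeal and fibroblast genes made the opposite pattern. Of 52 measured genes 35 (67.3%, against 2.21% of all genes) were called higher in the SON and 0 lower, with a median of 1.71. The mean of the list was 6.49 to 6.85 on SON arrays and 4.85 to 5.00 on PVN arrays. Without array SON 3, the lowest of the SON arrays, 36 were called higher. The pia lies on the ventral face of the SON and not of the PVN. The part of meningeal tissue in other differences was not tested.

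Ptgds, which makes prostaglandin D2 and is abundant in the leptomeninges, gave 12.32, 12.21, 12.25, 12.61 and 12.81 in the SON and 8.59, 9.13, 9.16, 8.55 and 8.49 in the PVN, 12.6-fold higher (difference 3.65, SE 0.18, adjusted p = 5.24e-06). Slc6a13, a GABA and taurine transporter of the meninges, gave 6.82, 7.15, 6.75, 7.09 and 7.29 in the SON and 3.12, 3.50, 1.87, 2.39 and 1.87 in the PVN, where 2 arrays were at the floor (difference 4.47, SE 0.33, adjusted p = 4.57e-05). Igfbp2, a binding protein of insulin-like growth factors, gave 10.13, 10.18, 9.48, 9.85 and 10.05 in the SON and 5.59, 6.18, 6.37, 5.50 and 5.95 in the PVN (difference 4.02, SE 0.20, adjusted p = 5.38e-06). Col1a2, a chain of type I collagen, was at 8.55 ± 0.39 and 4.73 ± 0.18 (SD, n = 5), a difference of 3.82 (adjusted p = 5.09e-06). Its partner Col1a1 differed by 1.60 on its brighter probe set and by 3.81 on a second one.

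The proteoglycans Ogn (3.37) and Fmod (3.37), the transporters Slc6a20a (3.54), Slc13a4 (3.90) and Slc22a6 (3.28), and the growth factor Igf2 (3.06) belonged to the same group. The other Igf2 probe sets lay at or near the floor in both nuclei and did not pass (0.145, -0.128 and 0.198). Col5a1 reached 0.48 on its brighter probe set, which was not called, and 3.26 on a dimmer one. Coch (cochlin) and Inf2 (a formin), which were not in the list, were also among the 15 largest rises, at 3.66 and 3.60 (adjusted p = 5.24e-06 and 9.29e-05).

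Of 19 pericyte and smooth muscle genes 6 were called higher (31.6%, against 2.21% of all genes) and 0 lower, with a median of 0.44, and 11 did not pass. Tpm2, a tropomyosin, and Tagln, a smooth muscle protein, were at the floor on all 5 PVN arrays and gave 6.80, 6.52, 5.45, 6.29 and 6.31 and 6.69, 5.92, 3.77, 6.35 and 6.28 on the SON arrays, which makes them at least 21.2-fold and 15.3-fold higher in the SON (adjusted p = 5.11e-06 and 0.000948). Array SON 3 was the lowest of the group for both. Vtn (vitronectin, 2.59), Myh11 (1.15, overlapping groups), Mylk (1.11) and Myl9 (1.06) were the other 4, and Acta2 (smooth muscle actin, 0.21), Rgs5 (0.25) and Pdgfrb (0.74) were not called. A dimmer Pdgfrb probe set was called higher at 1.92 (adjusted p = 0.00891) and the other one did not pass. Of 29 endothelial genes 10 passed as higher (34.5%, against 10.3% of all genes) and 3 as lower (10.3%, against 8.75%) without the fold limit, and 16 did not pass. The 2 called higher (6.9%, against 2.21%) were Vwf (von Willebrand factor) at 1.53 (SE 0.30, adjusted p = 0.00957) and Egfl7 at 1.06, and Cldn5 (claudin 5) passed at 0.42.

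**Figure D4:**
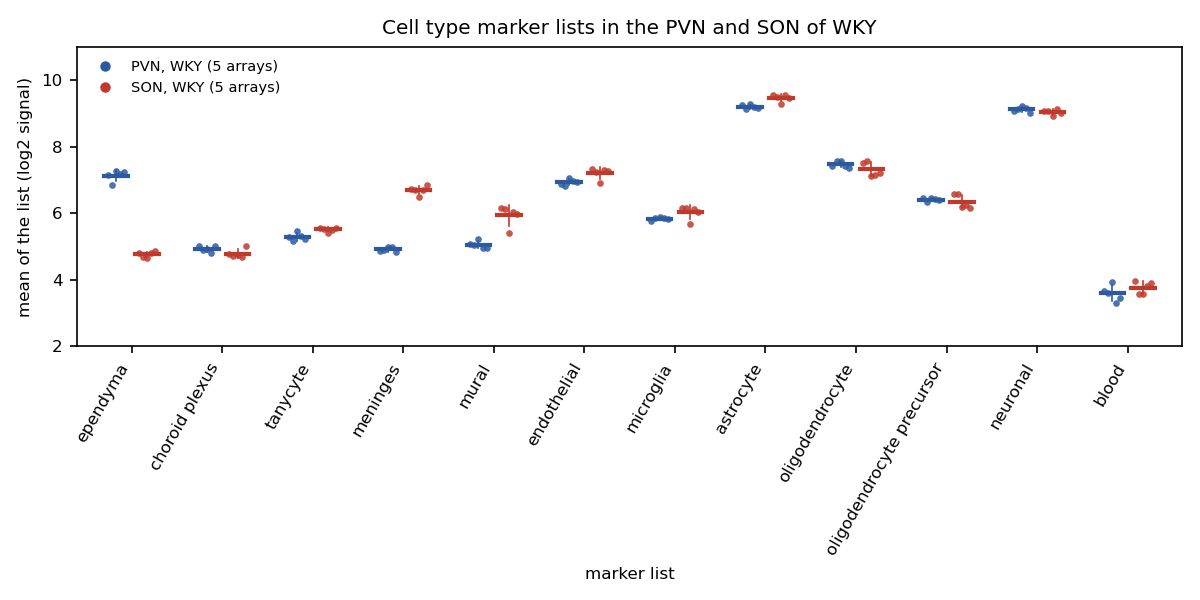
Mean log2 signal of each cell type marker list in the PVN (blue) and SON (red) of WKY rats, with 1 point per array, 5 per nucleus, the mean as a horizontal line and 1 SD as a vertical line. The ependymal list lies between 6.84 and 7.26 in the PVN and between 4.66 and 4.86 in the SON. The meningeal list lies between 4.85 and 5.00 in the PVN and between 6.49 and 6.85 in the SON, and the nuclei overlap for the neuronal list.

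Immediate early genes, which mark recent activity, gave 2 calls of 28 (7.14%, against 2.21% of all genes), both higher, Gadd45b at 1.24 and Ier3 at 1.05 (adjusted p = 0.0126 and 0.015). With no fold limit, 3 passed as higher (10.7%, against 10.3% of all genes) and 6 as lower (21.4%, against 8.75%). Fos gave 7.37, 7.64, 7.29, 7.55 and 6.85 in the SON and 6.84, 7.10, 7.99, 7.31 and 7.41 in the PVN, with overlapping groups (difference 0.0095, SE 0.22, adjusted p = 0.999). Jun and Jund passed as lower within 2-fold, at -0.44 and -0.63, and a dimmer probe set of Jund was called lower at -1.60 (adjusted p = 0.0169).

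The SHR arrays showed how far these differences were found in other animals. The same contrast in SHR gave 616 calls with the SON higher (1.98%) and 592 with the SON lower (1.91%). Of the 547 called higher in WKY, 327 were called higher in SHR (59.8%, and 53.1% of the SHR calls), 219 were not called and 1 was called lower. Of the 549 called lower in WKY, 361 were called lower in SHR (65.8%, and 61.0% of the SHR calls), 187 were not called and 1 was called higher. The sign was the same for 1044 of the 1096. In SHR 26 of the 29 ependymal genes were called lower, 36 of the 52 meningeal genes higher and 10 of the 17 parvocellular peptides lower. Of the 17 magnocellular genes 1 was called higher and 3 lower, where WKY had 3 each way. Among all 14217 genes 362 were called higher and 353 lower in SHR.

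The interaction of nucleus with strain tested whether the 2 strains differ in this contrast. It passed the adjusted p for 11 of 31042 probe sets (0.0354%), 9 of them with a smaller and 2 with a larger value of SON minus PVN in SHR, and 2009 had an unadjusted p under 0.05. A gene name was given for 8 of them. Ucn had a difference of 2.69 in WKY and of 0.81 in SHR (adjusted p = 0.00318), with a mean SON signal of 7.34 in WKY and 5.47 in SHR. Trim30d, of a family of antiviral ubiquitin ligases, went from 2.38 to 0.39 (adjusted p = 0.000106), with a mean SON signal of 7.30 in WKY and 5.54 in SHR. Cidea, a lipid droplet protein, and Tpd52l1 went from 1.68 to 0.45 and from 1.09 to 0.32 (adjusted p = 0.0231 and 0.0393). The other 4 named genes were Cbr3 (2.36 in WKY and 0.092 in SHR), Vwa3a (-0.19 and -2.52), Bcl2l15 (-0.88 and -2.45) and a dimmer probe set of Trim14 (1.45 and -1.07). Pdyn, Crh, Sst, Pmch and Ptgds, with differences in SHR of 1.93, -4.66, -4.58, -5.49 and 3.98, did not pass the interaction test. When each of the 19 arrays was left out in turn, Ucn, Trim30d, Vwa3a, Bcl2l15 and Trim14 passed in 19 of 19 fits, with adjusted p for Ucn up to 0.0104, Cidea in 12, Tpd52l1 in 5 and Cbr3 in 2. The number past the test was then 7 to 20, with 7 without PVN 4 of WKY and 20 without SON 4 of SHR.

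**Figure D5:**
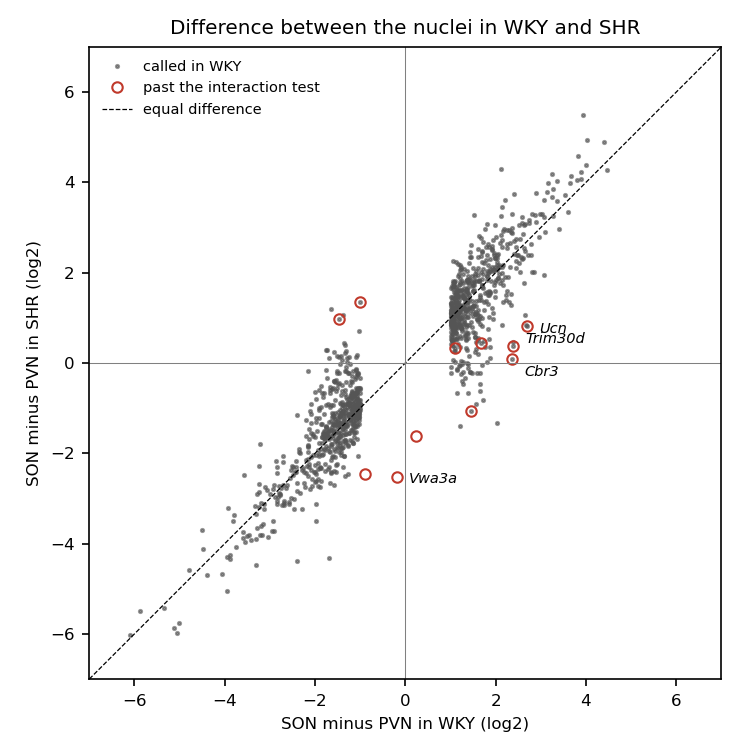
Difference between SON and PVN (log2) in SHR on the vertical axis against that in WKY on the horizontal axis, for the 1096 probe sets called in WKY (grey points). Red circles mark the 11 probe sets past the interaction test, called in WKY or not, and the dashed line marks equal differences. Of the grey points 1044 have the same sign in both strains, and Ucn and Trim30d lie below the line.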

How the data were processed

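RNA of hand-dissected nuclei was hybridised to Affymetrix rat genome expression arrays. Per the submitters' processing notes the authors deposited MAS5 signals, a 1-colour intensity per probe set on a linear scale, and the values as deposited kept that array scaling. The notes used here give no background setting. Each array was set to a common median (signal 40.5), a floor was set at the 10th percentile (3.64) and log2 was taken. Probe sets were named from the platform annotation updated through RefSeq gene tables: 20826 had 1 symbol, 436 several and 9780 none. Of 1101 list names, 173 (Crhr1 among them, not analysed here) matched no probe set and 8 matched by synonym. A gene in a list was represented by the brightest of its probe sets.

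The 10 WKY arrays were fitted in limma 3.58.1 (R 4.3.3) with nucleus as the term, moderated by eBayes, and p-values were adjusted over all 31042 probe sets by Benjamini-Hochberg. The SHR contrast used 9 arrays and the interaction all 19. The fit was tested on simulated data. Tables and figures used Python 3.11.15, pandas 2.3.3 and matplotlib 3.10.9. The number of arrays limits the precision.

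Named genes were those with the 15 largest rises and 15 largest falls, up to 6 called genes and 3 highest-signal genes of each list, all genes of lists under 20, and a set of hormones, factors and receptors. Hcrtr2, Oprm1, Sstr1, Npr1, Klf5, Foxj1 and Drc12 were chosen after their values were seen. Members, lists and rules were chosen with earlier results of these data known. SON and PVN arrays of the same number did not deviate together (correlations of their deviations -0.0335 to -0.00082), so the numbers were not used as pairs in the model. Alternatives were the deposited scale, quantile normalization, 2 low-signal filters, 2 floors, 2 moderations, array weights, all arrays in 1 fit, a replicate block, the methods' t-test, other probe sets of a gene and each array left out. Leaving out arrays in the SHR and interaction fits was added after seeing the data.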

Additional observations from a re-analysis of the deposited data

Results flagged for a closer look

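In 408 groups of 5 arrays (SON and PVN of 204 named genes), the gap from the highest or lowest array to its nearest neighbour, as a share of the range of the group, was above Dixon's critical value of 0.71 in 35 cases. Chance alone flags about 1 group in 20. The array furthest out was SON 3 in 11 cases, PVN 2 in 7 and SON 4 in 5, and the cause was not tested. In 21 of the groups over 1 array lay at the floor, so that the gap is set by the floor and says nothing about an array. These groups held 7 of the 35 cases (Cbr3, Grik3, Pomc and Slc18a3 in the PVN, Cimap1b, Oxtr and Sim2 in the SON), and the other 387 groups held 28, of which SON 3 gave 8, PVN 2 gave 5 and SON 4 gave 5.

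Array SON 1 was the lowest of its group for Oprm1 (0.768). Array SON 2 was the lowest of its group for Cbr3 (0.807) and Spaca9 (0.76). Array SON 2 was the highest of its group for Ier3 (0.807). Array SON 3 was the lowest of its group for Aplnr (0.758), Camkv (0.729), Igf2 (0.747), Inf2 (0.875), Lmo4 (0.713), Npvf (0.895), Tagln (0.737) and Vwf (0.746). Array SON 3 was the highest of its group for Cimap1b (1), Oxtr (1) and Sim2 (1). Array SON 4 was the lowest of its group for Bcl2l15 (0.716), Rprm (0.782) and Slc18a3 (0.888). Array SON 4 was the highest of its group for Calb1 (0.849) and Kcnmb4 (0.751). The Npvf signal of SON 3 was 1.87 where the other SON arrays spanned 4.66 to 4.99, and the Vwf signal was 6.58 where the other SON arrays spanned 7.83 to 8.26.

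Array PVN 2 was the lowest of its group for Cimap1b (0.803), Dnah1 (0.808), Fezf2 (0.715) and Msx1 (0.819). Array PVN 2 was the highest of its group for Grik3 (0.732), Inf2 (0.786) and Pomc (0.826). Array PVN 3 was the lowest of its group for Chrna4 (0.849). Array PVN 3 was the highest of its group for Calb1 (0.794), Cbr3 (1) and Six6 (0.749). Array PVN 4 was the lowest of its group for Gjb6 (0.769) and Npvf (0.716). Array PVN 4 was the highest of its group for Bcl2l15 (0.883). Array PVN 5 was the highest of its group for Slc18a3 (0.748).

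The difference between the nuclei itself differed between the strains in limma's interaction test for 8 named genes, given as the SHR value of SON minus PVN less the WKY value. These were Bcl2l15 (-1.57, adjusted p = 0.00804), Cbr3 (-2.27, adjusted p = 0.0393), Cidea (-1.23, adjusted p = 0.0231), Tpd52l1 (-0.77, adjusted p = 0.0393), Trim14 (-2.52, adjusted p = 0.00804), Trim30d (-1.99, adjusted p = 0.000106), Ucn (-1.88, adjusted p = 0.00318) and Vwa3a (-2.34, adjusted p = 0.000956).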

How the results depend on the processing

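Of 4404 recomputed differences of named genes, 38, of 18 genes, had a sign opposite to that reported, and 0 of the 38 passed the adjusted p in the fit of all arrays or in the alternative. Quantile normalization turned Avp (-0.11), Cpe (-0.053), Itih3 (-0.11), Mbp (-0.052), Resp18 (-0.066), Scg5 (-0.0022) and Stmn3 (-0.047), array weights turned Avp (-0.042), a floor at 16 turned Nos1 (0.030) and log2(value + 16) turned Oxtr (-0.018). Leaving out 1 array gave ranges that crossed 0 for Avp (-0.092 to 0.17), Oxt (-0.17 to 0.060), Cst3 (-0.084 to 0.050), Eno2 (-0.071 to 0.019), Fos (-0.11 to 0.17), Gabrb1 (-0.0043 to 0.092), Nos1 (-0.65 to 0.13), Otp (-0.50 to 0.050), Pnoc (-0.036 to 0.13), Vgf (-0.21 to 0.015) and the brightest probe set of Trim14 (-0.017 to 0.19). Of the 131 named genes that were called, 72 were called under all 22 alternatives. Leaving out 1 WKY array gave 479 to 548 probe sets called higher and 472 to 564 lower, and 1743 to 2533 and 1546 to 2006 without the fold limit, where all arrays gave 2313 and 2144. A filter on the higher group mean left 351 called higher, a filter on the overall mean left 246 higher and 282 lower, and log2(value + 16) left 252 higher and 277 lower. The filters tested fewer probe sets (16500 and 15521), and the cause of the fewer calls was not tested. The methods' t-test with Benjamini-Hochberg passed 1410 as lower without the fold limit. With the replicate number as a block, 1182 passed as higher and 1066 as lower without the fold limit, 354 were called higher in SHR, and 1 probe set passed the interaction. The labels do not pair the samples, so these give no measure of the effect. Quantile normalization gave 19 for the interaction. Leaving out 1 array gave 468 to 616 called higher and 514 to 614 lower in SHR, and 7 to 20 for the interaction. In WKY the adjusted p of 25 named genes was lost without 1 array, among them Npvf, Isl1, Onecut2, Kcna1, Kcnk12, Ramp3, Npr1, Drd2, Hrh3, Adra2b, Sytl4, Myh11, Oprm1 and Klf5, and 5 (Avpr1a, Mc4r, Nts, Sim1 and Slc1a3) gained it. Low signals limit the depth of the comparison: 8.18% to 10.5% of values on each WKY array lay at the floor.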
